A study of Rattus norvegicus with 15 samples.

Results

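The genes examined were 5 aquaporins, AQP1, AQP3, AQP4, AQP5 and AQP11, among 17463 gene symbols counted in 15 rat mammary tumour libraries. They were taken by symbol from the deposited count table, and AQP3 was selected on its measured level, which was higher in the midkine libraries. The contrast of midkine with vehicle therefore chose AQP3, and its values are given as a description with no test. The count table held 12 genes of the aquaporin family, and the other 7 (MIP, AQP2, AQP6, AQP7, AQP8, AQP9 and AQP12A) are described at the end.

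All tumours arose in Fischer rats after a pair of intraperitoneal NMU injections at 50 mg/kg each; NMU (N-nitroso N-methylurea) is a carcinogen that induces mammary tumours in rats. The midkine group (9 libraries) also received recombinant rat midkine, a heparin-binding growth factor, at 300 ug/kg and 3 times a week, in a 2-week course before each NMU injection. The other group (6 libraries) is labelled vehicle; age and sex are not in the labels. Each library was made from a small piece of mammary tumour, and libraries are named here by group and title number (vehicle 2-1, midkine 4-2); no label says whether libraries that share a number, such as midkine 4-1, 4-2 and 4-3, came from 1 animal. P-values therefore measure only the spread between libraries, which may be technical or come from tumours of the same rat.

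Aquaporins are membrane proteins that form pores as tetramers, each subunit with a channel of its own. AQP1, AQP4 and AQP5 are water channels, AQP3 is an aquaglyceroporin that also passes glycerol, and AQP11 belongs to an unorthodox branch found in intracellular membranes. Textbook sites of expression are vessel endothelium and red cells for AQP1, basolateral membranes of epithelia and epidermis for AQP3, astrocyte end-feet and fast-twitch muscle fibres for AQP4, and the apical membrane of gland secretory cells for AQP5.

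Library totals ran from 4925504 to 8486523 reads, so that 1 read was worth 0.117 to 0.238 CPM. CPM are counts per 1e6 reads, here after scaling by trimmed mean of M-values (TMM), a factor per library set by the bulk of genes. The factor was 0.558 in midkine 1 and 0.891 to 1.13 in the other 14, and the levels of the 5 members in midkine 1 are also given without it (raw CPM, scaled by the deposited total alone); those of other genes there are given with it. Skeletal muscle genes divided the libraries: the myosin gene MYH4 had 424500 reads in midkine 1, at most 1 read in midkine 3-1, 3-2, 4-1, 4-2 and 4-3, and 461 to 993 reads in the other 9 libraries. The epithelial markers EPCAM and CDH1 were present in every library, at 369 to 1548 CPM and 204 to 1273 CPM.

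The promoter sequences of AQP3 and AQP5 are shown because these members had the 2 largest differences between the groups, in opposite directions, among the 4 members kept by the expression filter. Each is the 300-base window from 250 bases before to 50 after the gene start in RefSeq's annotation of the assembly GRCr8, 5′ to 3′ on the gene's strand. The AQP3 window is chr5:61040634-61040933 on the minus strand and the AQP5 window is chr7:132601278-132601577 on the plus strand. Capitals mark matches on either strand to a TATA box (TATAAA), a GC box (GGGCGG), an AP-1 site (TGACTCA) or an E box (CACGTG). No motif overlapped another in these windows.
AQP3: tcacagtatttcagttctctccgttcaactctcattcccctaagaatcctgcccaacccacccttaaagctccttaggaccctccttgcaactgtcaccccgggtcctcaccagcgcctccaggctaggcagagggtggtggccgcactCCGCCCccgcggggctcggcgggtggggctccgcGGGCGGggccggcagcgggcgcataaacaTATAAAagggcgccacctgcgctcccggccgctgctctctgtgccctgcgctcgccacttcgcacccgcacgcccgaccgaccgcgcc
AQP5: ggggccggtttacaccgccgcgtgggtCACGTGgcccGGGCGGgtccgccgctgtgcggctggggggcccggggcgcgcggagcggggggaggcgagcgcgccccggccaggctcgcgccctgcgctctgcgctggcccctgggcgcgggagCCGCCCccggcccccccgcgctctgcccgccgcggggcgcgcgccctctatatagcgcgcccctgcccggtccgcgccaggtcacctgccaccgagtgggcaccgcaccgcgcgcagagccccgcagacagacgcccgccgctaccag

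The AQP3 window held 1 TATA box and 2 GC boxes, and the AQP5 window held 2 GC boxes and 1 E box. The AQP5 window held no TATAAA and neither window held the AP-1 site, which says only that those exact letters are not there. Near matches, such as the tatata in the AQP5 window, were not marked. Among 33469 promoter windows of this length, 14.2% held the TATA box, 33.1% the GC box, 4.63% the AP-1 site and 6.42% the E box. The AQP5 window was 82.3% G and C with 49 CG pairs, above 99.6% and 99.1% of all windows, and the AQP3 window was 67.3% G and C with 28 CG pairs, against medians of 51.7% and 7 pairs. The genes also have family members as neighbours: in the GRCr8 gene order AQP5 lies between AQP2 and AQP6, and AQP3 lies beside AQP7. No data here measure the activity of these windows.

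Of the 5 aquaporins, 4 were kept by the expression filter, which AQP4 did not pass. The comparison of midkine with vehicle called none of the 3 members that could be tested (AQP1, AQP5 and AQP11) at an adjusted p under 0.05 (edgeR quasi-likelihood test with Benjamini-Hochberg adjustment), where 0.00% of 11665 genes were called and the smallest adjusted p was 0.399. A log2 fold change of at least 1 towards midkine was found for AQP3, in a comparison where 9.10% of genes had one. AQP3 was chosen for being higher in midkine, so its place among them was fixed in advance. It also passed the filter only through midkine libraries, as no vehicle library held more than 8 of its reads. A log2 fold change of -1 or below was found for AQP5, and 0.892% of genes had one. None of the 5 members had groups that did not overlap in CPM, against 0.0171% of genes tested. The median log2 fold change was 0.04 over all genes.

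**Figure D1:**
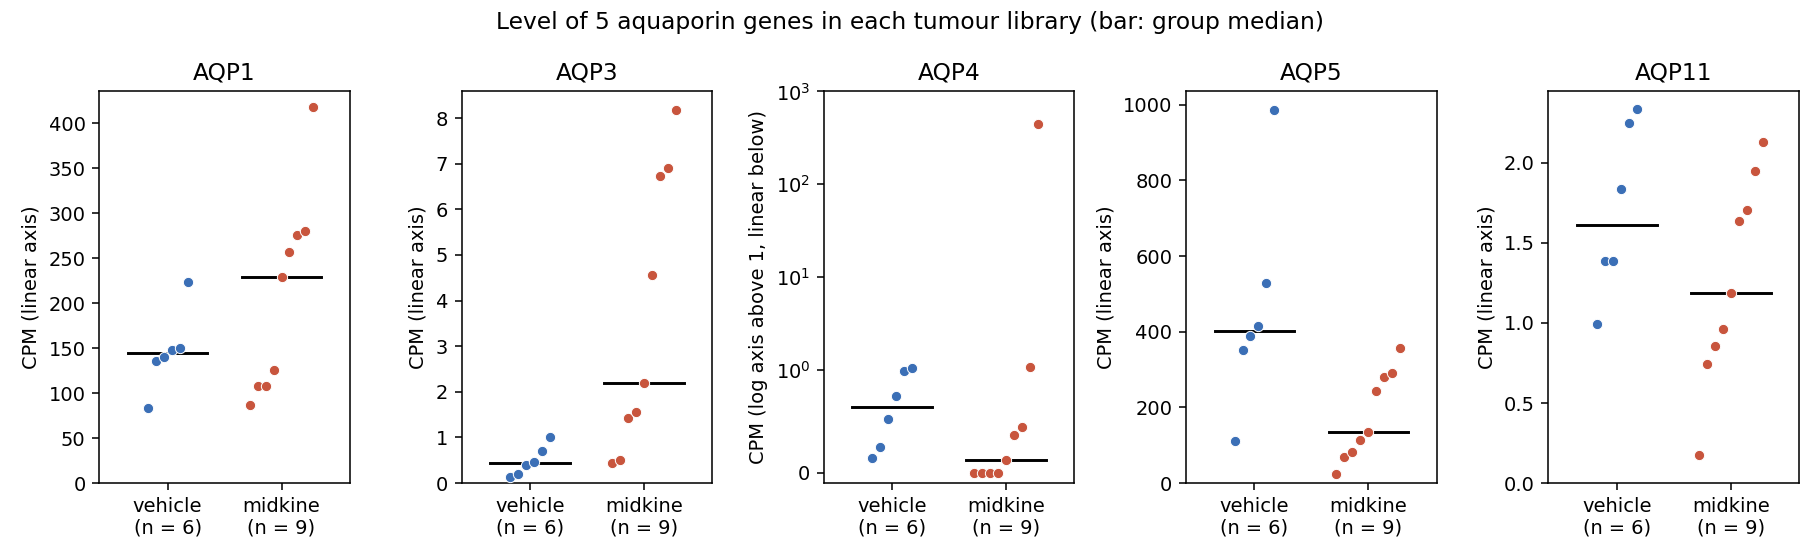
Level of each member in CPM (y axis, linear except AQP4, which is logarithmic above 1) in 6 vehicle and 9 midkine libraries, 1 point per library, with the group median as a bar. Of AQP3, 7 midkine points lie above every vehicle point, 4 vehicle points of AQP5 lie above every midkine point, and 1 midkine library holds nearly all AQP4.

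AQP5, the water channel of gland secretory cells, had 30938 reads in all, and its mean was lower in the midkine than in the vehicle libraries. Vehicle libraries ran from 112 CPM in vehicle 6 over a median of 402 to 987 CPM in vehicle 3, and midkine libraries from 25.2 CPM in midkine 3-2 over a median of 136 to 356 CPM in midkine 2. All 9 midkine libraries lay below the vehicle median and 4 of 6 vehicle libraries lay above every midkine library. In raw CPM, midkine 1 held 38.1. Vehicle 6 and vehicle 2-1 (351 CPM) were the ones within the midkine range. The means were 464 ± 291 CPM (SD, n = 6) and 178 ± 117 CPM (SD, n = 9). This was a log2 fold change of -1.38 with an SE of 0.51, and edgeR gave an adjusted p of 0.399, which did not pass the threshold. It was -1.02 without vehicle 3 and -1.11 (SE 0.58) within the 10 libraries that held more than 1 MYH4 read (6 vehicle, 4 midkine).

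Libraries under the same title number differed widely in AQP5. Midkine 3-1 held 282 CPM and midkine 3-2 held 25.2 CPM, while midkine 4-1, 4-2 and 4-3 held 245, 113 and 83.0 CPM. Vehicle 2-1 and 2-2 lay closer together, at 351 and 414 CPM. The spread between libraries was thus wide inside each group, with an SD of 62.7% of the mean in vehicle and 65.9% in midkine.

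Low AQP5 went with low epithelial markers in some libraries and with high ones in others. The summed level of 12 epithelial marker genes, all 12 of them detected in every library, ran from 6331 to 8923 CPM in vehicle and from 2807 to 13630 CPM in midkine tumours. Midkine 1, 4-2 and 5 had the lowest sums (2807, 3434 and 3463 CPM) and held 69.1, 113 and 136 CPM of AQP5. Midkine 3-2 and 4-3 had the highest sums (13630 and 13020 CPM) and yet held 25.2 and 83.0 CPM of AQP5. As a percentage of the epithelial sum, AQP5 stood at 1.74 to 11.1% (median 5.77%) in vehicle and 0.185 to 5.24% (median 3.41%) in midkine libraries. Of other epithelial lists, 8 of 8 hormone-sensing luminal, 8 of 10 basal and myoepithelial and 4 of 6 secretory alveolar genes tested had a log2 fold change below 0, none of them called. Their sums ran from 680 to 2020, 5774 to 13550 and 613 to 8955 CPM in vehicle and from 249 to 1978, 2252 to 18970 and 189 to 15780 CPM in midkine libraries. Over the 15 libraries AQP5 had a rho of 0.15 with the epithelial sum. With the hormone-sensing luminal, basal and myoepithelial, and secretory alveolar sums it was 0.59, 0.63 and -0.12. The milk protein genes CSN2 and WAP were at 0 in no library. In bulk tissue, fewer cells of a type cannot be told apart from less RNA per cell, and the part of epithelial content in the AQP5 difference was not tested.

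**Figure D2:**
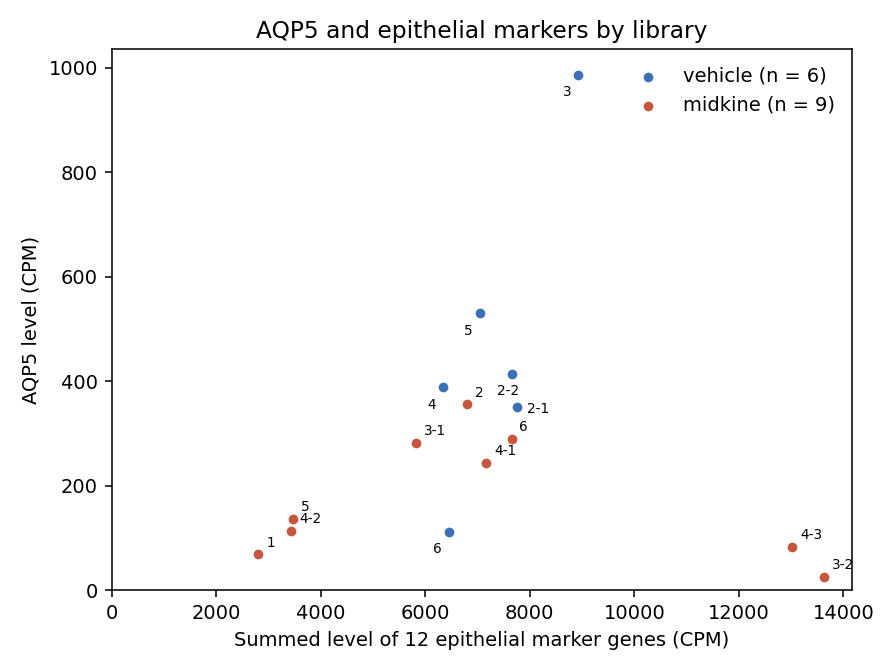
AQP5 level (y axis, CPM) against the summed level of 12 epithelial marker genes (x axis, CPM), 1 point per library with its title number, vehicle in blue and midkine in red. Midkine 3-2 and 4-3 sit far right at 13630 and 13020 CPM of markers with 25.2 and 83.0 CPM of AQP5, and vehicle 3 is the highest point at 987 CPM.

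The 4 genes whose levels ranked most like AQP5 over the 15 libraries were TPD52L1 (Spearman rho 0.914, Pearson r 0.885 on log2 CPM), SHISA8 (0.864, 0.819), BIK (0.864, 0.721) and GNG13 (0.854, 0.807). TPD52L1, a tumor protein D52 family member, had a mean of 55.5 ± 13.3 CPM in the vehicle libraries (SD, n = 6) and of 31.1 ± 12.9 CPM in the midkine libraries (SD, n = 9). Leaving out the 2 libraries farthest from the AQP5 median, midkine 3-2 and midkine 1, left r at 0.821 for TPD52L1 and 0.583 for BIK, a pro-apoptotic BCL2 relative. These genes were picked as the most alike of all genes kept, so the values describe and do not test a relation, and libraries of 1 title number may share an animal.

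AQP1, the water channel of endothelium and red cells, had 19450 reads in all and its midkine mean lay above its vehicle mean, with wide overlap. Vehicle libraries ran from 83.9 CPM in vehicle 3 over a median of 144 to 224 CPM in vehicle 2-2. Midkine libraries ran from 87.4 CPM in midkine 2 over a median of 229 to 419 CPM in midkine 5. Midkine 1, 2, 4-3 and 6, at 87.4 to 125 CPM, lay below the vehicle median, and midkine 3-1, 3-2, 4-1, 4-2 and 5 lay above every vehicle library. In raw CPM, midkine 1 was the lowest of all 15 libraries, at 59.6 against 85.8 in the lowest vehicle library, and midkine 3-2, at 221, lay below vehicle 2-2, at 248. The means were 147 ± 44.8 CPM (SD, n = 6) and 210 ± 111 CPM (SD, n = 9), with a log2 fold change of 0.51 (SE 0.34, adjusted p = 0.647). It was 0.33 without midkine 5.

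The same 5 midkine libraries were those in which the summed level of 15 endothelial marker genes lay above every vehicle library. That sum ran from 298 to 757 CPM in vehicle and from 299 to 1477 CPM in midkine tumours, and all 14 endothelial genes tested had a log2 fold change above 0 (median 0.69), none of them called. The defining markers PECAM1 and CDH5 were at 0 in no library. As a percentage of that sum, AQP1 stood at 31.2 ± 8.99% (SD, n = 6) in vehicle and 25.2 ± 4.30% (SD, n = 9) in midkine libraries. Vehicle ran from 18 to 42.5% and midkine from 19.2 to 29.8%, so the midkine range lay inside that of vehicle. Over the 15 libraries AQP1 had a rho of 0.86 with the endothelial sum and of 0.23 with the summed level of 7 erythroid genes. With summed B cell, T and NK cell and adipocyte markers it was 0.72, 0.70 and 0.62. With summed macrophage, fibroblast, and basal and myoepithelial markers it was 0.56, 0.54 and -0.51. Vehicle 5, with the highest erythroid sum (639 CPM), held 149 CPM of AQP1, and midkine 3-2, with the lowest (24.5 CPM), held 229 CPM. Of the 5 midkine libraries high in AQP1, midkine 4-1, 3-1 and 4-2 had the next highest erythroid sums (630, 519 and 479 CPM). Midkine 5 had 252 CPM. The part of vessel, red cell or other cell content in the AQP1 values was not tested.

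**Figure D3:**
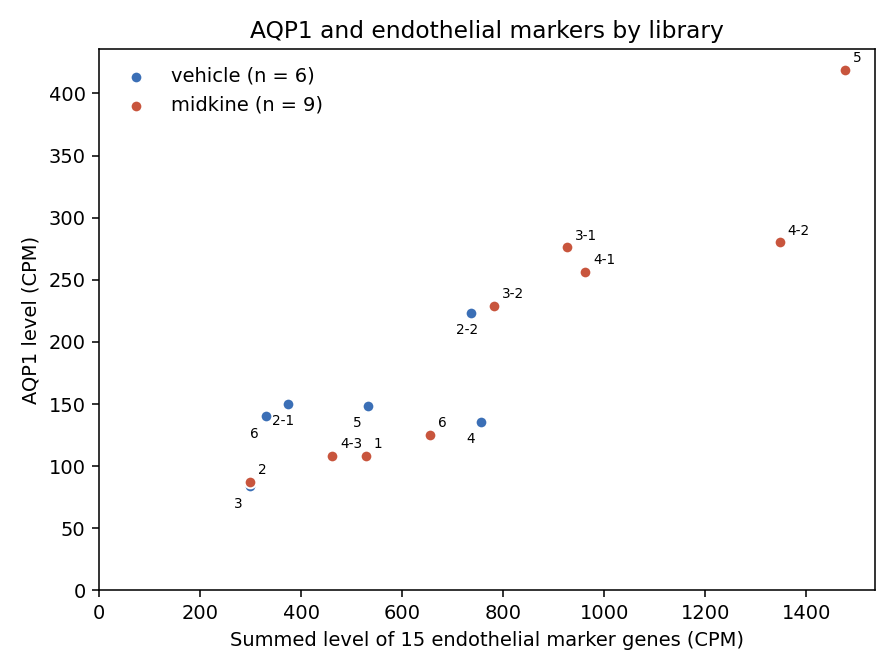
AQP1 level (y axis, CPM) against the summed level of 15 endothelial marker genes (x axis, CPM), 1 point per library with its title number, vehicle in blue and midkine in red. The 5 midkine libraries above 224 CPM of AQP1 are also the 5 above 757 CPM of endothelial markers.

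The genes that ranked most like AQP1 were MFNG, a glycosyltransferase of the Notch pathway (rho 0.95, r 0.842), FAM43A (0.914, 0.917), CPQ (0.911, 0.867) and the transcription factor USF1 (0.911, 0.915). By Pearson r in place of rho, ADGRL4, an adhesion receptor of endothelium (r 0.890), replaced MFNG among the 4. Without midkine 5 and 4-2, the libraries farthest from the AQP1 median, r was 0.916 for MFNG and 0.859 for USF1. USF1 itself had nearly the same mean in both groups, 95.9 ± 8.82 CPM (SD, n = 6) and 98.1 ± 17.1 CPM (SD, n = 9).

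AQP3, the glycerol-passing channel, was measured at low levels, with 240 reads over all libraries. Vehicle libraries held 1 to 8 reads and ran from 0.124 CPM in vehicle 2-1 over a median of 0.430 to 1.01 CPM in vehicle 4. Midkine libraries held 3 to 67 reads and ran from 0.447 CPM in midkine 2 over a median of 2.20 to 8.18 CPM in midkine 3-2. The highest were midkine 3-2, 1, 3-1 and 4-2, at 8.18, 6.91, 6.72 and 4.57 CPM, while midkine 2 and 4-3 (0.496 CPM) lay within the vehicle range. The other 7 midkine libraries lay above every vehicle library. Midkine 1 held 3.81 raw CPM, against at most 1.08 raw CPM in vehicle.

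The AQP3 means were 0.482 ± 0.329 CPM (SD, n = 6) and 3.61 ± 3.02 CPM (SD, n = 9), a log2 fold change of 2.83 (SE 0.71). Counting error alone is wide at these levels. The 67 reads of midkine 3-2 gave 7.90 raw CPM (95% exact binomial interval 6.12 to 10.03) and the 1 read of vehicle 2-1 gave 0.141 raw CPM (0.00356 to 0.783). Such intervals cover counting error only, since the reads carry no molecular identifiers. The value was 2.40 (SE 0.74) within the 10 libraries with more than 1 MYH4 read, in a fit without the low-count filter. It was lowered to 1.94 (SE 0.65) when the title number entered the fit as a block. In that fit midkine 1, alone under its number, adds nothing to the contrast.

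Title numbers did not hold AQP3 together either. Midkine 4-1, 4-2 and 4-3 stood at 1.55, 4.57 and 0.496 CPM, while midkine 3-1 and 3-2 lay closer, at 6.72 and 8.18 CPM. Markers of squamous keratinocytes, in which AQP3 is known to be abundant, were highest in midkine 3-2 and 3-1 (56.8 and 51.2 CPM, summed over 10 genes) and among the lowest in midkine 1 (19.8 CPM). Their sums ran from 19.7 to 30.7 CPM in vehicle and 19.8 to 56.8 CPM in midkine, and the defining marker KRT1 was at 0 in 6 libraries, 3 per group. The other defining marker, KRT10, ran from 11.9 to 18.9 CPM in vehicle. It was lowest in midkine 3-2 (3.54 CPM) and highest in midkine 3-1 (22.3 CPM). Over the 15 libraries AQP3 had a rho of 0.01 with the squamous sum. Genes of other cell types also had higher values in midkine, though none was called: 5 of 5 adipocyte, 12 of 13 macrophage, 13 of 13 T and NK cell and 9 of 9 fibroblast genes tested. Their sums ran from 58.5 to 187, 457 to 1117, 47.6 to 126 and 542 to 10840 CPM in vehicle and from 47.0 to 1169, 646 to 3658, 48.3 to 1936 and 333 to 144500 CPM in midkine. ADIPOQ was at 0 in midkine 5 and PLIN1 in midkine 2, 4-3 and 5. CD68, CSF1R, CD3E, CD3G, COL1A1 and PDGFRA were at 0 in no library. AQP3 had a rho of 0.68 with the adipocyte, 0.57 with the macrophage, 0.46 with the T and NK cell and 0.59 with the fibroblast sum. With summed endothelial, B cell, basal and myoepithelial, and Schwann and nerve markers it was 0.58, 0.56, -0.44 and -0.57. Such values may hold part of the contrast that chose AQP3. The part of these cell types in the AQP3 values was not tested.

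Genes that ranked most like AQP3 included MNDA, a nuclear antigen of myeloid cells (rho 0.911, r 0.890), PLCL2 (0.911, 0.743) and the poly(C)-binding protein gene PCBP3 (0.889, 0.827). Without midkine 3-2 and 1, r was 0.851 for MNDA and 0.670 for PLCL2. PCBP3 was itself low in vehicle, at 0.902 ± 0.731 CPM (SD, n = 6). All 3 also had a log2 fold change above 1 towards midkine, so the likeness holds part of the contrast that chose AQP3.

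AQP11, the intracellular member, was close to the limit of detection in every library, with 1 to 20 reads each and 154 in all. Vehicle libraries ran from 0.994 CPM in vehicle 2-1 over a median of 1.61 to 2.34 CPM in vehicle 2-2. Midkine libraries ran from 0.178 CPM (1 read) in midkine 5 over a median of 1.19 to 2.13 CPM in midkine 3-1. The groups overlapped, with 4 midkine libraries below every vehicle library and 4 above the vehicle median. The means were 1.70 ± 0.534 CPM (SD, n = 6) and 1.26 ± 0.640 CPM (SD, n = 9), with a log2 fold change of -0.42 (SE 0.39, adjusted p = 0.773) and an approximate 95% interval of -1.19 to 0.34. It was -0.28 without midkine 5. In midkine 1 the raw level was 0.657 CPM. In midkine 5 it was 0.158 CPM with a 95% exact binomial interval of 0.00401 to 0.882 raw CPM. Midkine 5 also had the lowest summed level of the hormone-sensing luminal markers, 249 CPM.

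The genes that ranked most like AQP11 were NIPAL2 (rho 0.821, r 0.699), the epidermal growth factor relative AREG (0.811, 0.768), the uridylyltransferase gene TUT1 (0.804, 0.775) and the Wnt enhancer RSPO3 (0.800, 0.710). AREG, a target of estrogen receptor signalling in the mammary gland, stood at 353 ± 138 CPM (SD, n = 6) and 245 ± 199 CPM (SD, n = 9). With midkine 5 and 4-3 left out, r was 0.576 for AREG and 0.513 for RSPO3. At 1 to 20 reads per library the order of AQP11 values is itself uncertain, and weak likeness at these counts is no finding.

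AQP4, the channel of astrocytes and fast muscle fibres, was in effect a gene of 1 library. Midkine 1 held 1864 reads of AQP4 and the other 14 libraries held 0 to 9. Vehicle libraries ran from 0.141 CPM in vehicle 3 over a median of 0.635 to 1.05 CPM in vehicle 2-2. Midkine 1 stood at 444 CPM (245 raw CPM, 95% exact binomial interval 234 to 256), and the next midkine library, midkine 5, at 1.07 CPM. Midkine 3-1, 4-1, 4-2 and 4-3 had no AQP4 read, which allows up to 0.492, 0.466, 0.361 and 0.372 CPM (3 reads), and midkine 3-2 had 1.

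The AQP4 group means, 0.618 ± 0.378 CPM (SD, n = 6) and 49.5 ± 148 CPM (SD, n = 9), are thus set by midkine 1, and the midkine median of 0.122 CPM lay below that of vehicle. Without the low-count filter, which removes AQP4, edgeR gave a log2 fold change of 6.27 (SE 2.35, adjusted p = 0.370). It was -1.29 (SE 0.85, adjusted p = 0.606) when midkine 1 was left out, and so the direction rests on that library.

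Each of the 10 libraries with more than 1 MYH4 read held AQP4 reads. Of the reads of both genes, AQP4 made up 0.437% in midkine 1 (95% exact binomial interval 0.418 to 0.457%). The 6 vehicle libraries together held 27 AQP4 and 5162 MYH4 reads, or 0.520% (0.343 to 0.756%), and midkine 2, 5 and 6 together held 12 and 1718, or 0.694% (0.359 to 1.21%), and the 3 intervals overlapped. These intervals cover counting error only, and the pooled ones leave out the spread between libraries. Library by library the share ran from 0.101% in vehicle 3 to 1.28% in midkine 5. The intervals of midkine 5 (0.473 to 2.78%) and vehicle 2-2 (0.459 to 1.89%) lay above that of midkine 1. The 5 midkine libraries with at most 1 MYH4 read held 1 AQP4 read in all. The muscle creatine kinase gene CKM was also highest in midkine 1, at 59490 CPM, and stood at 58.2 to 99.3 CPM in vehicle. All 13 muscle genes tested had a log2 fold change above 0 with midkine 1 included, none called, and their sum ran from 468 to 959 CPM in vehicle and from 48.7 to 436800 CPM in midkine, and the second highest library, midkine 5 with 4240 CPM, held 6 AQP4 reads. How muscle transcripts came to be in these libraries was not tested.

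**Figure D4:**
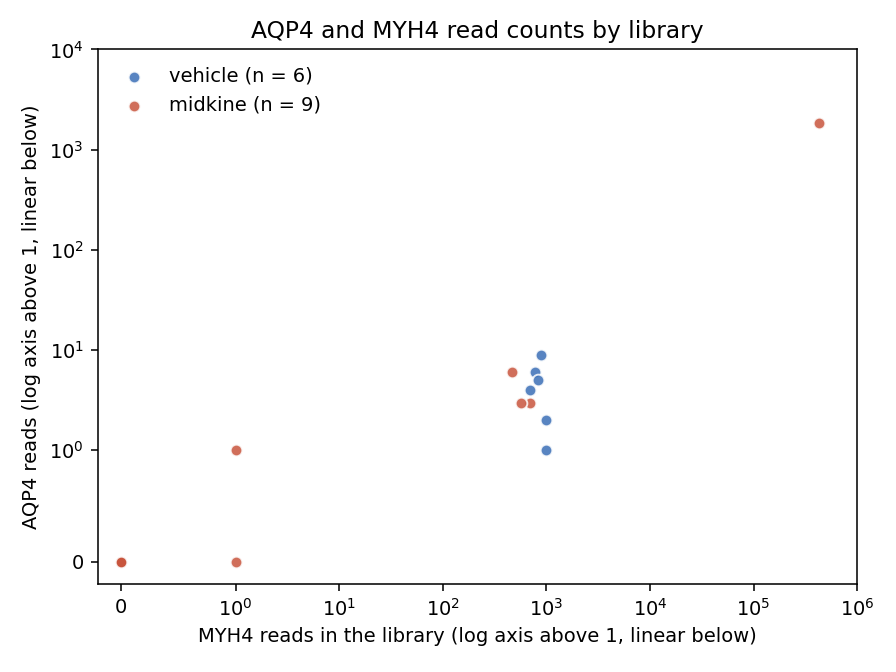
AQP4 reads (y axis) against MYH4 reads (x axis) in each library, both axes logarithmic above 1 and linear below, vehicle in blue and midkine in red; coinciding points overlie each other. Midkine 1 stands alone at 424500 MYH4 and 1864 AQP4 reads, 9 libraries group at 461 to 993 MYH4 reads with 1 to 9 AQP4 reads, and 5 midkine libraries lie at the origin or at 1 read.

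The genes that ranked most like AQP4 included 3 of striated muscle, TCAP, TRIM54 and MYOM2 (rho 0.932, 0.908 and 0.885), and the mitochondrial NLRX1 (0.889). Their r without midkine 1 and 4-2, the libraries farthest from the AQP4 median, was 0.744, 0.844, 0.806 and 0.623. At 0 to 9 AQP4 reads per library outside midkine 1, these values rest on differences of a few reads. The genes were also picked as the most alike, so the values only describe. TCAP, TRIM54 and MYOM2 are sarcomere or sarcomere-associated proteins.

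Across the 15 libraries the members did not share 1 order. AQP5 and AQP11 ranked most alike (rho 0.582, r 0.519), while AQP3 and AQP5 ranked most unlike (rho -0.543, r -0.573). AQP1 had a rho between -0.254 and 0.275 with each of the other 4. These values describe 10 pairs over libraries that share group labels and, in part, title numbers.

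**Figure D5:**
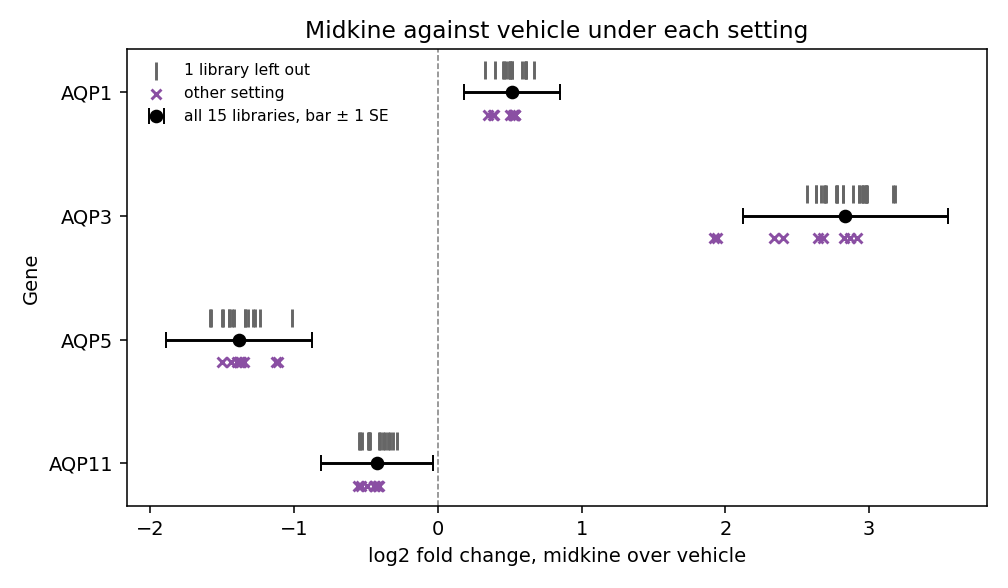
Log2 fold change of midkine over vehicle (x axis) for the 4 members kept by the filter (y axis), with all 15 libraries (black point, bar of 1 SE), with 1 library left out (grey ticks) and under other settings (purple crosses). No value of AQP1, AQP5 or AQP11 crosses 0, and those of AQP3, which was chosen on this contrast, run from 1.92 to 3.18.

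The other 7 family genes were low, and AQP9 alone among them passed the filter. AQP9, an aquaglyceroporin of hepatocytes and leukocytes, ran in vehicle from 1.27 CPM over a median of 19.6 to 55.7 CPM and in midkine from 0.466 CPM over a median of 1.59 to 19.2 CPM. Vehicle 6, 2-1 and 2-2 stood above every midkine library, at 55.7, 32.9 and 29.9 CPM, and vehicle 3, 4 and 5 lay within the midkine range. Its log2 fold change was -2.18 (SE 0.88, adjusted p = 0.431). AQP7, the glycerol channel of fat cells, had 47 reads in midkine 1 and 41 in midkine 5, at most 8 in any other library and none in 9 libraries. Those were also the libraries with the highest summed adipocyte markers, 1169 CPM in midkine 1 and 667 CPM in midkine 5. The defining markers ADIPOQ and PLIN1 stood at 176 and 10.7 CPM in midkine 1. Both were at 0 in midkine 5, where 3 of the 9 adipocyte genes had no read. MIP, AQP8 and AQP12A had 0 to 9, 0 to 23 and 0 to 18 reads per library. AQP2 and AQP6, the neighbours of AQP5, had 5 and 2 reads in all.

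Genes that work beside the channels were followed in 5 lists, and none of their members was called in either direction. Of the glycerol and triglyceride genes 7 of 12 tested had a higher value in midkine (median log2 fold change 0.05), and of the cell volume and osmotic genes 12 of 20 (0.12). The counts were 8 of 12 for carbonic anhydrases and acid-base transporters (0.34), 11 of 14 for anchoring and trafficking genes (0.18) and 11 of 18 for genes of hydrogen peroxide, which some aquaporins also pass (0.03). Of all genes tested, 6494 of 11665 were higher.

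Single genes of these lists were named by smallest p. GPD1, the glycerol-3-phosphate dehydrogenase of the cytosol, had a log2 fold change of 3.00 (SE 1.36), with 1297 CPM in midkine 1 and at most 35.6 CPM elsewhere, and -0.68 (SE 0.31) without midkine 1. The carbonic anhydrase CA14 went from 1.57 (SE 0.86) to -0.17 (SE 0.30) on the same change, with 109 CPM in midkine 1. The lipase LIPE and DGAT2, which makes triglyceride, had 0.51 (SE 0.30) and 0.26 (SE 0.25), and LIPE 0.28 without midkine 1. WNK4 and SGK1, kinases that regulate salt transport, were on the lower side at -0.97 (SE 0.45) and -0.91 (SE 0.47), and the WNK target OXSR1 on the higher at 0.35 (SE 0.15). The bicarbonate transporter SLC4A7 had 1.72 (SE 0.75), at 146 CPM in midkine 3-2 against 27.7 CPM in the library after it, and CA8 had -0.70 (SE 0.36). Agrin (AGRN), a basement membrane organiser of AQP4 at end-feet, had -0.49 (SE 0.22) and caveolin CAV1 0.55 (SE 0.28). Of the peroxide genes GPX1 had 0.56 (SE 0.21), SOD2 1.09 (SE 0.42) and the oxidase NOX4 0.97 (SE 0.40). Adjusted p-values of these genes by edgeR ran from 0.399 to 0.779.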

How the data were processed

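The deposited data are raw read counts, 1 column per library and 1 row per gene symbol, per the file headers. The table's name gives STAR as the aligner; the submitters' processing notes name the build rn6, and for the aligner's version, counting mode, strand setting and annotation nothing is given in the sources used here. Per the labels' protocols, 3000 ng of RNA per tumour piece went to poly(A) libraries read as 150-bp pairs. All columns were used, and each pair of libraries of 1 group differed by more than sampling noise (a chi-square of 19.9 or more for each degree of freedom).

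The members and lists were chosen with earlier results of these data known. Counts were fitted with edgeR 4.0.16 in R 4.3.3 (expression filter by group, TMM scaling, quasi-likelihood F test, Benjamini-Hochberg adjustment over 11665 genes, threshold 0.05). Standard errors are the log2 fold change divided by the root of F. AQP4 was to be tested too but did not pass the filter, so its value comes from a fit without it. Genes named are the family, the 4 genes of highest Spearman rho with each member on log2 CPM (prior count 2), the 3 genes of smallest p per list and marker genes. Of these, 2 genes are not reported here. ADGRL4 is named from the alternative by Pearson r. On simulated counts of 11665 genes with 200 changed, the test recovered 9.50% at a 2-fold change, 89.5% at 4-fold and 95.5% at 8-fold. These counts were drawn independently for each library, with a spread set by a trend on mean level. Single libraries that stand apart, as midkine 1 does in muscle genes, were not simulated, so recovery in the real libraries may be lower. Alternatives were other scaling, filters, DESeq2 1.42.0, limma-voom (limma 3.58.1), the title number as a block, summed libraries, the 10 libraries with more than 1 MYH4 read and leaving out each library.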

Additional observations from a re-analysis of the deposited data

Results flagged for a closer look

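The AQP4 level of midkine 1 stood far from the other midkine libraries, at 443.8 CPM against 1.07 CPM in the next. The gap took up 0.998 of the range of the 9 libraries, where the critical value of Dixon's test is 0.493. Of the 10 combinations of a member and a group examined in this way no other was set apart, and chance sets apart about 1 in 20 groups. In the same library the muscle genes MYH4 and CKM were at their highest, and their part in the AQP4 level was not tested.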

How the results depend on the processing

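AQP1, AQP5 and AQP11 kept their direction and stayed above the threshold of adjusted p under every setting run, except that a mean count of at least 50 left no AQP11 or AQP3 to test. With the title number as a replicate block their log2 fold changes were 0.53, -1.13 and -0.49. AQP3 had 1.94 (SE 0.65) with that block, and 1.92 with the block and no low-count filter. The filter dropped AQP3 from the fits of summed and of MYH4-carrying libraries and from part of those with 1 library left out, so fits without it were added after the data had been seen. AQP4 turned to -1.33 by DESeq2 and to -0.85 with the block. With 1 library left out, AQP4 ran from -1.29 (without midkine 1) to 6.51 (without vehicle 2-2). Midkine 1 is alone under its title number, so in a fit with the block that library adds nothing to the contrast. Why DESeq2 differs was not tested. DESeq2 called 92 genes, AQP1, AQP5 and AQP11 not among them, and every other setting called 0, also at an adjusted p under 0.10. At an unadjusted p under 0.05 edgeR had 1178 genes and limma-voom 602. Scaling by the deposited total alone shifted the median of all genes by -0.14, and relative to that shift AQP1, AQP3, AQP5 and AQP11 had 0.53, 2.79, -1.30 and -0.39. Same-numbered libraries of the 2 groups did not deviate together (r from -0.24 to 0.14 over 5 numbers), so the numbers were not taken as pairs. Depth limits AQP3, AQP4 and AQP11, at 1 to 67, 0 to 9 (outside midkine 1) and 1 to 20 reads per library.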
